A study of Mus musculus with 6 samples.

Results

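Genes of programmed cell death were compared between WT and *Ifnar1*-/- monocytes from the CNS of rIFN-β-treated mice with EAE (experimental autoimmune encephalomyelitis, a mouse model of multiple sclerosis). The list held 10 genes, chosen by name out of 54232 genes in the deposited files: the death receptor gene *Fas*; *Xaf1*; *Zbp1*, *Ripk1*, *Ripk3*, and *Mlkl* of necroptosis; *Casp8*; and *Bid*, *Mcl1*, and *Bcl2l1* of the BCL-2 family. All 10 passed the filter on low counts and were among the 11254 genes tested. There were 3 WT and 3 *Ifnar1*-/- libraries, numbered 1 to 3 in each group. Recipients were irradiated GFP+ mice given equal parts of WT (CD45.1) and *Ifnar1*-/- (CD45.2) bone marrow, so that all recipients had marrow of both genotypes. By the labels, every group carried the same treatments: bone marrow transfer, immunization for EAE 6 to 7 weeks later, and 30000 IU of IFN-β daily. GFP- monocytes with high Ly6C and no Ly6G were sorted at disease peak, and IFNAR1, a chain of the type I IFN receptor, was missing in all cells of the knockout donor and not in monocytes alone. No library from mice without IFN-β was used here, the age of the mice is not given in the sources used here, and all WT cells differed from all *Ifnar1*-/- cells in the CD45 variant as well. Recipients numbered 3, but the sources used here do not say which library came from which recipient, so p-values measure the spread between these libraries, and libraries of both genotypes may share a recipient. The deposited files carry a further number that differs among the 3 libraries of a group, recurs in the other group, and is not explained in the sources used here. Libraries were taken as replicates because the labels call them so. If that number marks a condition, the means, SDs, and p-values below would span different conditions.

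Cells die by several programs that share components. In apoptosis, a death receptor such as FAS recruits the protease caspase-8, which cuts executioner caspases and the BCL-2 family protein BID, and BID then promotes release of cytochrome c from mitochondria unless MCL-1 or BCL-XL (the product of *Bcl2l1*) prevents it. In necroptosis, the kinase RIPK3 is brought together with RIPK1 or with the nucleic acid sensor ZBP1 through a shared stretch of protein, the RHIM, and phosphorylates MLKL, which then permeabilizes the plasma membrane. Caspase-8 restrains this second program, and XAF1 is a partner of the caspase inhibitor XIAP. MCL-1 is a survival factor of many blood cells, and *Zbp1* and *Xaf1* are known as genes that type I IFN induces in many cell types.

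*Xaf1*, *Zbp1*, and *Mlkl* were higher in WT monocytes, by 4.81-fold, 2.76-fold, and 1.87-fold, and the other 7 genes did not pass the test. A gene was called at an adjusted p of at most 0.05 in the edgeR quasi-likelihood test together with a fold change of at least 1.5. By this rule 3 of the 10 genes were called higher in WT, where 1.67% of all genes tested were. The list was chosen with earlier results of these data known, so its shares beside those of all genes are a description and no test of the list. None of the 10 was called lower in edgeR, DESeq2, or limma-voom, where 0.462%, 1.02%, and 0.382% of all genes tested were, and none was lower at an unadjusted p under 0.05 in edgeR, where 8.14% were. The median log2 fold change was 0.17 over the 10 genes and -0.01 over all genes tested. Values of the groups did not overlap, with WT higher, for 4 of the 10 genes, against 11.1% of all genes tested. They did not overlap, with WT lower, for 1 of the 10, against 12.2%. With 3 libraries against 3, the two-sided exact permutation test of a single gene cannot give a p below 0.1.

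Libraries held from 4531782 to 7321380 expected counts. Levels are given as normalized CPM, counts relative to a library's size after TMM scaling (trimmed mean of M values), and a floor of 3 counts equals 0.427 to 0.638 on this scale, which covers counting error only. *Ifnar1* itself stood at 153, 126, and 111 for WT and 110, 102, and 109 for *Ifnar1*-/- libraries, apart by little more than 1 CPM at the closest (adjusted p = 0.360, edgeR). Transcript of the targeted gene was thus present in every library, the sources used here do not say which exons the allele lacks, and its gene-level count does not check the labels. The 7 monocyte markers were present in every library, with sums of 7801 to 9587 normalized CPM for WT and 8262 to 9523 for *Ifnar1*-/- libraries. Among 6 neutrophil markers *Ly6g*, the gene of the antigen excluded in the sort, was at or near 0. The list as a whole was not, with sums of 213 to 1040 in WT and 566 to 1470 in *Ifnar1*-/- libraries. Some of the monocyte markers differed between groups. *Ly6c2*, a gene of the Ly6C antigen used in the sort, was called 2.65-fold higher in WT, at 726, 788, and 640 against 177, 300.3, and 337 normalized CPM (adjusted p = 0.00957, edgeR). *Fcgr1* was at 1.64-fold (adjusted p = 0.0839) and *Ccr2* at 0.650-fold (adjusted p = 0.143), each without overlap of the groups, and the part of such differences in the results below was not tested. T cell genes were present at low levels: the sum of 8 markers ranged from 21.5 to 50.5 normalized CPM in WT and from 9.15 to 22.5 in *Ifnar1*-/- libraries, and the markers tested (7 of 8) were all higher in WT, none of them called. In bulk libraries of this kind, fewer cells with a transcript and less of it per cell cannot be told apart.

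**Figure D1:**
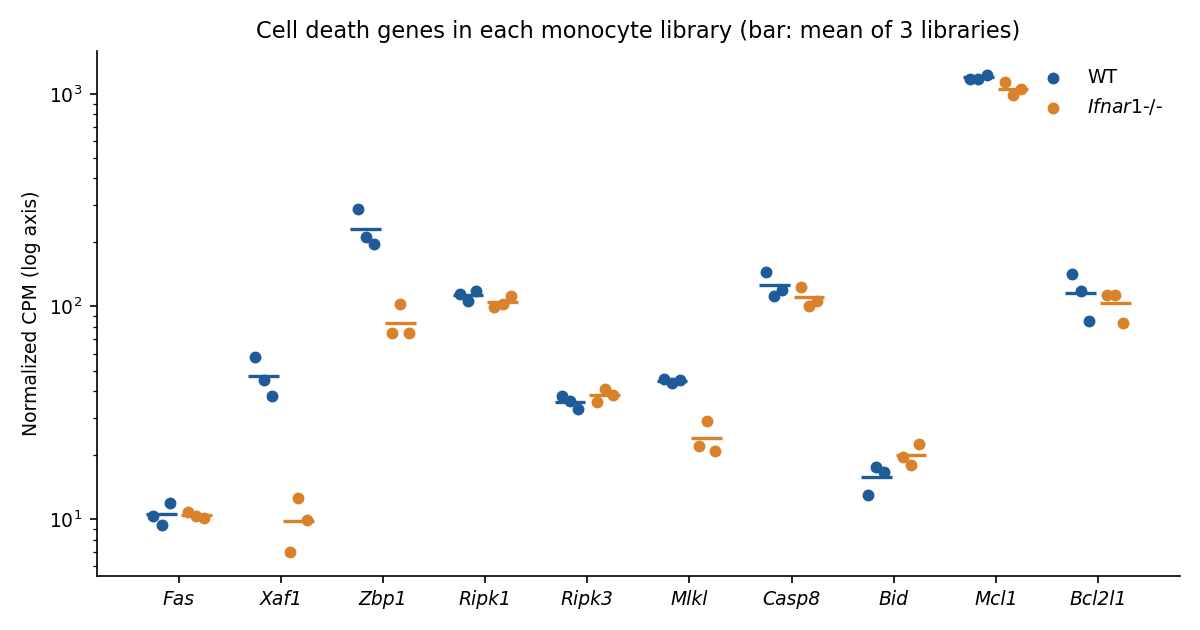
Normalized CPM (log axis) of the 10 cell death genes in each library, with 3 points per group and a bar at their mean. The WT points of *Xaf1*, *Zbp1*, and *Mlkl* lie above all *Ifnar1*-/- points, whereas those of *Fas*, *Ripk1*, *Ripk3*, *Casp8*, and *Bcl2l1* lie among them.

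Sequence upstream of the annotated starts is given first, since type I IFN signaling is known to act through short promoter elements. The 250 bases before the RefSeq start (build GRCm38.p6) are shown for *Xaf1* and *Mlkl*, the called genes that matched the promoter table; 9 of the 10 genes matched it, with 12 starts in all, and *Zbp1* did not.

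Xaf1, chr11:72301379-72301628, plus strand: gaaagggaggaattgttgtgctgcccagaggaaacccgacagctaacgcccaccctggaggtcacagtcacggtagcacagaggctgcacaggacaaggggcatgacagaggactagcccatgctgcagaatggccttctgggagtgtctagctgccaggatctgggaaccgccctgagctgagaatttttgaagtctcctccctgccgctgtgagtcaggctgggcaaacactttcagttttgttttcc

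Mlkl, chr8:111338206-111338455, minus strand: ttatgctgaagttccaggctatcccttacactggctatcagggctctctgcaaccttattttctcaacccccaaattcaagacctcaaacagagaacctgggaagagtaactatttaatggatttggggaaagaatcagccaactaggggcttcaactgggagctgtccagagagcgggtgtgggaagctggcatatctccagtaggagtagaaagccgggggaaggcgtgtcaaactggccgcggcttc

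GC content of these stretches was 56.0% for *Xaf1* and 50.8% for *Mlkl*. Windows of 300 bases, reaching from 250 before to 50 after each start, were searched on both strands for GAAANNGAAA, the core of the interferon-stimulated response element, for the closer repeat GAAANGAAA, and for TTCNNNGAA, the core of a gamma-activated site, which reads the same on both strands. A site of one kind may overlap a site of another. GAAANNGAAA was in 3.44% of 32851 promoter windows, and among the 10 genes it was found only at a start of *Ripk1*, which did not pass the test. GAAANGAAA was in 3.17% of all windows and in 1 window each of *Xaf1*, *Casp8*, and *Bcl2l1*. TTCNNNGAA was in 8.30% of all windows and in those of *Fas* and of *Ripk1*. None of these motifs was found in the *Mlkl* window, which says only that these letters are not in it. Of the genes with a match, *Xaf1* was called and the others were not. A site of each kind is shown in 30 bases with the matching letters in capitals, so that the spacing and position can be compared. The *Xaf1* match begins at base 11 of the transcript, and the others begin 5 bases before the start in *Ripk1*, 109 in *Casp8*, 172 in *Bcl2l1*, and 93 in *Fas*. In *Ripk1* the stretch runs across the start.

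Xaf1, chr11:72301629-72301658, plus strand: tgtgtgcaaaGAAACGAAActccacagaag

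Casp8, chr1:58802383-58802412, plus strand: tgcgaaagcaGAAACGAAActgggagacca

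Bcl2l1, chr2:152831881-152831910, minus strand: caccgacatcGAAAGGAAAaagcacttttt

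Ripk1, chr13:34002859-34002888, plus strand: aacgttcccgGAAATCGAAAagcgcggaac

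Fas, chr19:34290556-34290585, plus strand: tcaaagcgatTTCTGGGAAgacctgaatag

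*Zbp1* (chromosome 2, 173206612 to 173218923) was the most abundant of the called genes in TPM. It encodes a sensor of Z-form nucleic acids that starts necroptosis and other death programs through RIPK3. WT libraries 1, 2, and 3 stood at 288, 212, and 196 normalized CPM, and *Ifnar1*-/- libraries 1, 2, and 3 at 75.0, 102, and 74.9. The groups were well apart, and WT library 1 stood highest. On the log2 scale the difference was 1.47 (SE 0.19, adjusted p = 0.00242, edgeR quasi-likelihood test), with a 95% interval from 2.05-fold to 3.73-fold. The call held in 14 of 14 alternative settings, with log2 fold changes from 1.29 to 1.65. *Zbp1* transcripts were not absent without the receptor: *Ifnar1*-/- libraries held 407 to 603 counts of it.

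*Mlkl* (chromosome 8, 111311797 to 111338177) encodes the pseudokinase that carries out necroptosis. The WT values were 45.5, 43.8, and 45.2 normalized CPM, and the *Ifnar1*-/- values were 22.1, 28.8, and 20.96. WT libraries lay close together and all above the *Ifnar1*-/- libraries. The difference was 0.90 in log2 units (SE 0.16, adjusted p = 0.0143, edgeR), with a 95% interval from 1.47-fold to 2.39-fold. Unlike those of *Zbp1* and *Xaf1*, this call was lost without WT library 3 (log2 fold change 0.92, adjusted p = 0.0562), without *Ifnar1*-/- library 1 (0.86, adjusted p = 0.0963), or without *Ifnar1*-/- library 3 (0.83, adjusted p = 0.0837), and over all alternatives the value ranged from 0.83 to 1.07.

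*Ripk3* and *Ripk1*, the RHIM kinases that act upstream of MLKL, did not pass the test. *Ripk3* (chromosome 14, 55784995 to 55788865) was measured at 38.0, 36.1, and 33.0 normalized CPM with the receptor and at 35.7, 40.8, and 38.3 without it. The groups overlapped, and the interval of the difference ran from 0.756-fold to 1.15-fold (adjusted p = 0.753, edgeR). *Ripk1* (chromosome 13, 34002363 to 34037147) gave 115, 106, and 119 normalized CPM for WT, against 99.1, 103, and 112 for *Ifnar1*-/- libraries. These also overlapped, with an interval from 0.885-fold to 1.33-fold (adjusted p = 0.693, edgeR). *Ripk1* was the only gene of the list whose expected count was fractional in all 6 libraries, by a tolerance of 0.001, as RSEM divides reads that fit several genes. Its exons share 511 bases with the processed pseudogene *Gm17084* on the same strand and 241 with *Serpinb6a* on the opposite strand, so its value is uncertain where reads were split.

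Ratios of TPM (transcript abundance, which is per length) within each library set these genes against *Ripk3* independently of library size. The *Mlkl* to *Ripk3* ratio was 1.23, 1.07, and 1.32 with the receptor and 0.532, 0.670, and 0.612 without it. *Mlkl* was thus above *Ripk3* on the per-length scale in each WT library and below it in each *Ifnar1*-/- library. The *Zbp1* to *Ripk3* ratio was 13.5, 12.0, and 10.7 for WT, against 3.13, 5.32, and 3.92 for *Ifnar1*-/- libraries, again without overlap. Each of these ratios gave p = 0.1 in the two-sided exact permutation test on the log2 scale, the smallest value possible. The *Ripk1* to *Ripk3* ratio overlapped between groups, at 1.75 ± 0.191 for WT and 1.37 ± 0.272 for *Ifnar1*-/- monocytes (SD, n = 3 each). In *Ifnar1*-/- library 1, where the ratios of *Zbp1*, *Mlkl*, and *Ripk1* were lowest, the transcript length estimated for *Ripk3* was also the shortest, 1362 nucleotides against 1692 to 1900 in the others, which raises its TPM there.

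**Figure D2:**
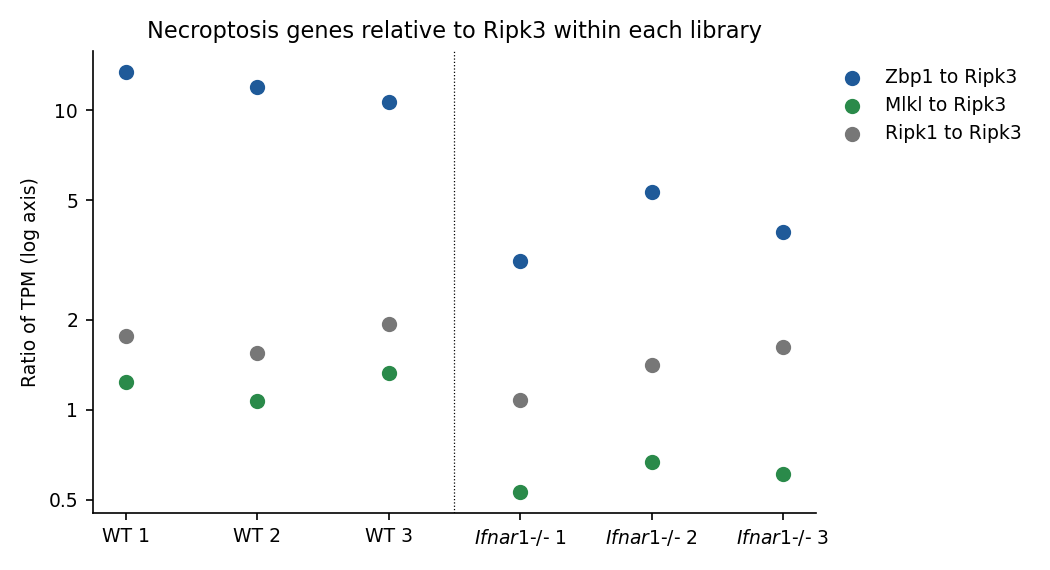
Ratio of the TPM of *Zbp1*, *Mlkl*, and *Ripk1* to that of *Ripk3* within each library (log axis), with WT libraries on the left and *Ifnar1*-/- libraries on the right. The *Mlkl* ratio is above 1 in every WT library and between 0.532 and 0.670 in *Ifnar1*-/- libraries, while the *Ripk1* ratios overlap.

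*Xaf1* (chromosome 11, 72301629 to 72313733) differed most among the 10 genes. XAF1 binds XIAP, which inhibits caspases. Its WT values were 58.1, 45.1, and 38.1 normalized CPM, and those of the *Ifnar1*-/- libraries 7.02, 12.5, and 9.93. Every WT library held at least 193 counts of *Xaf1* and no *Ifnar1*-/- library more than 74, which leaves a wide gap between groups. WT was higher by 2.27 log2 units (SE 0.24, adjusted p = 0.000505, edgeR), with a 95% interval from 3.34-fold to 6.93-fold. It was called in 14 of 14 alternatives, with values from 2.08 to 2.50. Group means of *Xiap* itself were 112 normalized CPM for WT and 118 for *Ifnar1*-/- monocytes (log2 fold change -0.08, adjusted p = 0.834, edgeR). The *Xaf1* to *Xiap* ratio of TPM was 2.77, 1.29, and 1.52 for WT and 0.270, 0.539, and 0.337 for *Ifnar1*-/- libraries, without overlap.

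*Fas*, whose product receives FASL from T cells, did not pass the test. *Fas* (chromosome 19, 34290666 to 34327772) was at 10.4, 9.35, and 11.9 normalized CPM for WT and at 10.8, 10.3, and 10.1 for *Ifnar1*-/- libraries. The *Ifnar1*-/- values lay inside the WT range, and the 95% interval ran from 0.746-fold to 1.37-fold (log2 fold change 0.01, adjusted p = 0.982, edgeR). *Fas* held 44 to 73 counts per library. *Casp8* (chromosome 1, 58795374 to 58847503), the protease that acts after FAS, gave WT values of 145, 112, and 120 and *Ifnar1*-/- values of 124, 101, and 107 normalized CPM, which overlapped. Its interval ran from 0.898-fold to 1.45-fold (adjusted p = 0.568, edgeR).

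The BCL-2 family genes did not pass the test, although for *Mcl1* and *Bid* the groups did not overlap. *Mcl1* (chromosome 3, 95658788 to 95663176), a survival factor, reached 1178, 1174, and 1231 normalized CPM for WT, against 1132, 990, and 1055 for *Ifnar1*-/- libraries. WT libraries were higher by a small margin, 1.13-fold (95% interval 0.894-fold to 1.42-fold, adjusted p = 0.590, edgeR). *Bid* (chromosome 6, 120891930 to 120916853), which links caspase-8 to mitochondria, gave WT values of 13.0, 17.6, and 16.6 and *Ifnar1*-/- values of 19.7, 18.0, and 22.6 normalized CPM. Here WT libraries were lower, at 0.779-fold (95% interval 0.583-fold to 1.04-fold, adjusted p = 0.349, edgeR). Exons of *Bid* share 628 bases with *Bcl2l13* on the opposite strand, and whether counting used strand is not given in the sources used here, so reads of these genes may have been mixed. *Bcl2l1* (chromosome 2, 152780668 to 152831728), the gene of BCL-XL, varied among libraries, with 143, 118, and 85.9 normalized CPM for WT and 113, 113, and 84.0 for *Ifnar1*-/- libraries. Library 3 was the lowest in both groups, and the interval ran from 0.821-fold to 1.52-fold (adjusted p = 0.723, edgeR), which does not leave out a change of 1.5-fold.

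**Figure D3:**
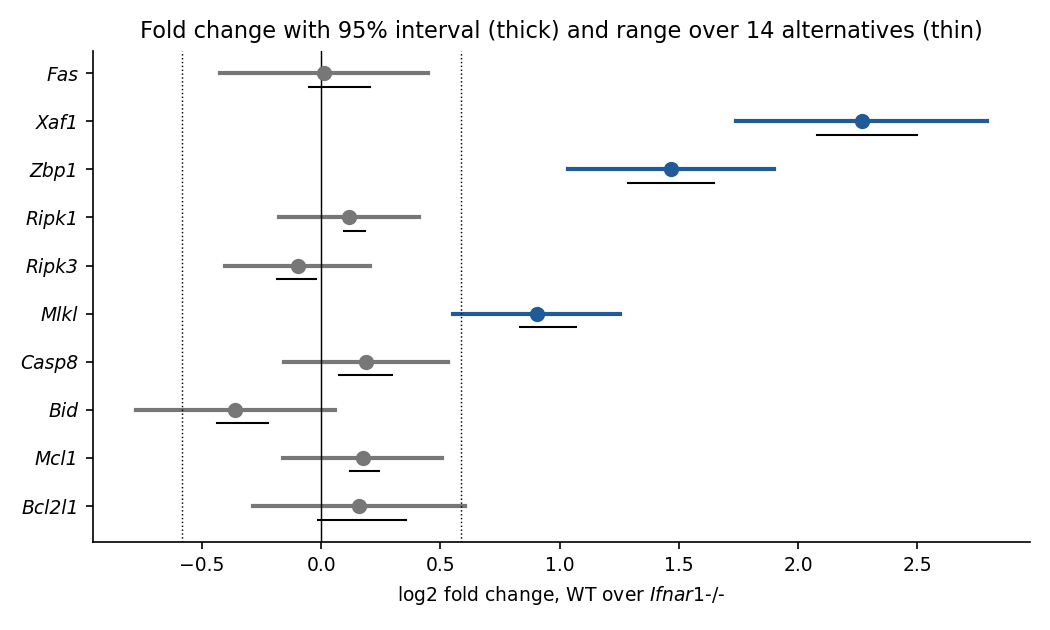
Log2 fold change of WT over *Ifnar1*-/- monocytes for each gene (point) with its 95% interval from edgeR (thick line) and the range over 14 alternative settings (thin line); dotted lines mark a fold change of 1.5 in each direction. *Xaf1*, *Zbp1*, and *Mlkl* are called (blue), the lower end of the *Mlkl* interval reaches 1.47-fold, and the intervals of the other 7 genes include no change.

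Levels were compared between genes in TPM. *Mcl1* was the most abundant gene of the list in both groups, at 574 ± 144 TPM for WT and 460 ± 0.658 for *Ifnar1*-/- monocytes (SD, n = 3 each). *Zbp1* followed, at 246 ± 35.9 TPM in WT and 99.7 ± 29.2 in *Ifnar1*-/- monocytes (SD, n = 3 each). In WT libraries its range was clear of the next gene, *Bcl2l1*, whereas in *Ifnar1*-/- libraries these ranges overlapped. In WT monocytes the order went on with *Bcl2l1* and *Casp8*, which overlapped, then *Xaf1*, *Ripk1*, *Mlkl*, and *Ripk3*, in which each overlapped its neighbor, and last *Bid* and *Fas*. In *Ifnar1*-/- monocytes *Xaf1* ranked 8 of 10, against 5 in WT monocytes, at 11.3 ± 4.22 TPM against 42.6 ± 5.81 with the receptor (SD, n = 3 each), and overlapped *Mlkl* and *Bid*. *Fas* had the lowest mean in both groups, at 7.74 ± 2.21 TPM in WT and 7.64 ± 0.927 in *Ifnar1*-/- monocytes (SD, n = 3 each). Protein-coding genes took between 34.8% and 51.6% of all TPM in a library, least in WT library 1, which lowers the TPM of all these genes in that library.

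RSEM also gives for each gene a mean transcript length weighted by its estimated isoforms, which moves when the isoform mix does. For *Zbp1*, whose 3 transcripts span 770 to 3325 nucleotides, it was 1156, 962, and 1036 nucleotides for WT, against 972, 957, and 953 for *Ifnar1*-/- libraries. For *Xaf1*, whose 5 transcripts span 415 to 2597 nucleotides, it was 1042, 1448, and 1128 nucleotides in WT and 921, 969, and 1078 in *Ifnar1*-/- libraries. The mean length was larger in WT for both genes, but the groups overlapped (two-sided exact permutation test, p = 0.2 for each, adjusted p = 0.75 over the 10 genes). Over the 10 genes the smallest p was 0.2, and the groups overlapped for all of them. *Ripk3* varied most in *Ifnar1*-/- libraries, from 1362 nucleotides in library 1 to 1826 in library 2.

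The genes with expression profiles nearest to those of the called genes were named by the root mean square difference between centred log2 profiles over the 6 libraries, as a description. For *Xaf1* these were *H2-T24* (0.130), *Rnf213* (0.131), and *Bst2* (0.147 log2 units). For *Zbp1* they were *Ifi205* (0.0823), *Parp14* (0.0964), and *Tlr9* (0.101 log2 units). For *Mlkl* they were *Hook2* (0.0887), *Ncoa7* (0.107), and *Ap3m2* (0.109 log2 units). All of these were higher in WT, as the measure requires, with log2 fold changes from 0.85 for *Ncoa7* to 2.28 for *H2-T24*.

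A wider list of 56 cell death genes, set out by role, was tested in the same fit. Of these, 50 passed the filter. The wider list was also chosen with earlier results of these data known, so its shares are a description as well. In edgeR 3 of the 50 were called higher in WT (*Tnfsf10*, *Adar*, and *Rnf31*), against 1.67% of all genes tested, and none was called lower, against 0.462%. Their median log2 fold change was 0.09. At an unadjusted p under 0.05 in edgeR, 7 of the 50 were higher and 0 lower, where 9.69% and 8.14% of all genes tested were. DESeq2 called 4 higher and 0 lower, against 3.15% and 1.02% of all genes, and limma-voom called 3 higher and 0 lower, against 1.58% and 0.382%.

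Among death ligands, *Tnfsf10*, the gene of TRAIL, was at 25.9, 13.2, and 18.8 normalized CPM for WT and at 3.36, 2.54, and 2.39 for *Ifnar1*-/- libraries. It was 6.94-fold higher in WT (95% interval 4.36-fold to 11.1-fold, adjusted p = 0.00064, edgeR), and the call held in 14 of 14 alternatives. *Tnf* averaged 45.5 normalized CPM for WT and 39.4 for *Ifnar1*-/- monocytes (adjusted p = 0.617). *Fasl*, the ligand of FAS, was not tested for low counts: the WT libraries held 3, 5, and 14 counts and the *Ifnar1*-/- libraries 1, 0, and 1. T cells are a known source of *Fasl*. WT library 3, with the most *Fasl* counts, had a T cell marker sum of 49.2 normalized CPM, while WT library 1, with 3 counts, had 50.5. The make-up of these sums differed. *Cd8a* was at 10.5 normalized CPM in WT library 3 and at 0.678 to 1.53 in the others, and *Cd4* was highest in WT library 1 (13.4). The sum of NK cell markers was also highest in WT library 3 (11.3). It was made up there of *Gzma* (7.70), *Prf1* (2.37), and *Klrb1c* (1.185 normalized CPM), with *Ncr1* at 0. The part of T cells or NK cells in the *Fasl* counts was not tested.

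Genes that act with the RHIM kinases or restrain them were 17 in all, each tested. *Adar*, whose product edits double-stranded RNA and is known to limit ZBP1 activation, gave WT values of 223, 160, and 150 and *Ifnar1*-/- values of 62.3, 97.4, and 66.8 normalized CPM, with a clear gap. It was 2.36-fold higher in WT (95% interval 1.70-fold to 3.27-fold, adjusted p = 0.0134, edgeR) and lost its call without *Ifnar1*-/- library 1 (adjusted p = 0.101) or library 3 (adjusted p = 0.0841). *Rnf31*, the catalytic subunit of the linear ubiquitin ligase that acts on RIPK1 complexes, was 1.69-fold higher (adjusted p = 0.0424, edgeR), and this call was lost in 9 of 14 alternatives, including each of the 6 fits that left out a library (adjusted p from 0.063 to 0.172). The other subunits of that ligase, *Rbck1* and *Sharpin*, were at 1.25-fold (adjusted p = 0.352) and 1.03-fold (adjusted p = 0.917). *Tlr3*, a receptor for double-stranded RNA that signals through the RHIM protein of *Ticam1*, was 2.31-fold higher in WT but missed the threshold (adjusted p = 0.0657, edgeR), and DESeq2 called it. *Tlr3* held only 19 to 75 counts per library. Its groups did not overlap in normalized CPM. In TPM they did, at 5.34, 2.40, and 5.67 for WT and 2.29, 3.00, and 3.81 for *Ifnar1*-/- libraries. *Tnfaip3* and *Birc3*, the most abundant brakes in TPM, were not called (adjusted p = 0.404 and 0.560).

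**Figure D4:**
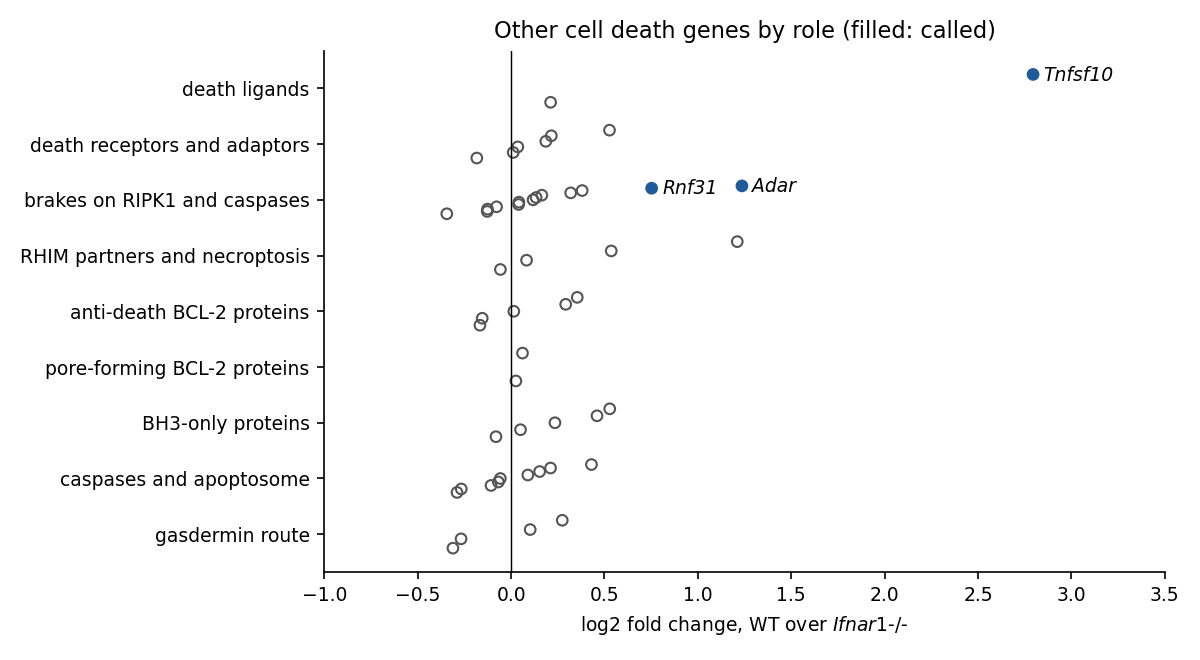
Log2 fold change of WT over *Ifnar1*-/- monocytes for the 50 tested genes of the wider list, by role; filled points passed both thresholds. *Tnfsf10*, *Adar*, and *Rnf31* are called, and *Tlr3* is the open point at 1.21 among RHIM partners.

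In the remaining roles no gene was called in either direction in this edgeR fit or by DESeq2, and *Tnfrsf1b* was among the genes higher in WT at an unadjusted p under 0.05. Death receptors and adaptors (6 of 7 tested) had a median log2 fold change of 0.11, with *Tnfrsf1b*, the gene of the second TNF receptor, at 1.44-fold (adjusted p = 0.132) and *Cflar*, the gene of the caspase-8 inhibitor cFLIP, at 1.14-fold (adjusted p = 0.614). Genes of anti-death BCL-2 proteins (5 of 5 tested) had a median of 0.01, and *Bcl2a1b* and *Bcl2a1d*, near-identical copies whose reads RSEM could have divided, were at 0.891-fold and 0.898-fold. The pore-forming genes *Bax* and *Bak1* were at 1.02-fold and 1.04-fold, with adjusted p of 0.955 and 0.886. BH3-only genes (5 of 7 tested) had a median of 0.23, with *Bcl2l11* (BIM) at 1.18-fold and *Bmf* at 1.04-fold. *Pmaip1*, the gene of NOXA, was at 1.38-fold without overlap of the groups (adjusted p = 0.290, edgeR) and was called in a fit with GC content and length offsets and a replicate block. Caspases and apoptosome genes (9 of 9 tested) had a median of -0.06, with *Apaf1* at 0.954-fold and *Cycs* at 0.818-fold. Genes of the gasdermin route (4 of 4 tested) had a median of -0.08, with *Gsdmd*, the pore-former of pyroptosis, at 1.07-fold and *Casp4* at 1.21-fold. *Gsdme* was at 0.83-fold, and *Casp1* was at 0.806-fold, with WT lower and without overlap of the groups (adjusted p = 0.372, edgeR).

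The mean of the T cell marker sum was higher in WT, as were the called genes, and the library values are given here. The sum of 8 T cell markers was 50.5, 21.5, and 49.2 normalized CPM over WT libraries 1, 2, and 3, against 22.5, 9.15, and 12.1 over the *Ifnar1*-/- libraries in the same order. WT libraries 1 and 3 were highest, and WT library 2 was inside the *Ifnar1*-/- range. Within groups the order was not the same throughout. In WT, library 1 had the highest sum and the highest *Xaf1*, *Zbp1*, *Mlkl*, and *Tnfsf10*. *Ifnar1*-/- library 2 had the lowest sum but the highest *Zbp1*, *Xaf1*, and *Mlkl* of its group (102, 12.5, and 28.8 normalized CPM). *Tnfsf10* was highest in *Ifnar1*-/- library 1 (3.36), where the sum of that group was highest. The part of T cells in the differences of *Xaf1*, *Zbp1*, *Mlkl*, and *Tnfsf10* was not tested. NK cell markers ranged from 3.40 to 11.3 in WT and from 1.02 to 3.36 in *Ifnar1*-/- libraries as a sum of 4 genes, with *Ncr1* at 0 in 5 of the 6. Markers of B cells summed to at most 1.71 normalized CPM in any library, and those of neutrophils overlapped widely between groups, from 213 to 1040 in WT and from 566 to 1470 in *Ifnar1*-/- libraries. Microglia markers summed to 30.6 to 40.7 in WT and 40.8 to 43.4 in *Ifnar1*-/- libraries, and markers of other brain cells to 45.1 to 61.3 and 44.6 to 50.9.

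**Figure D5:**
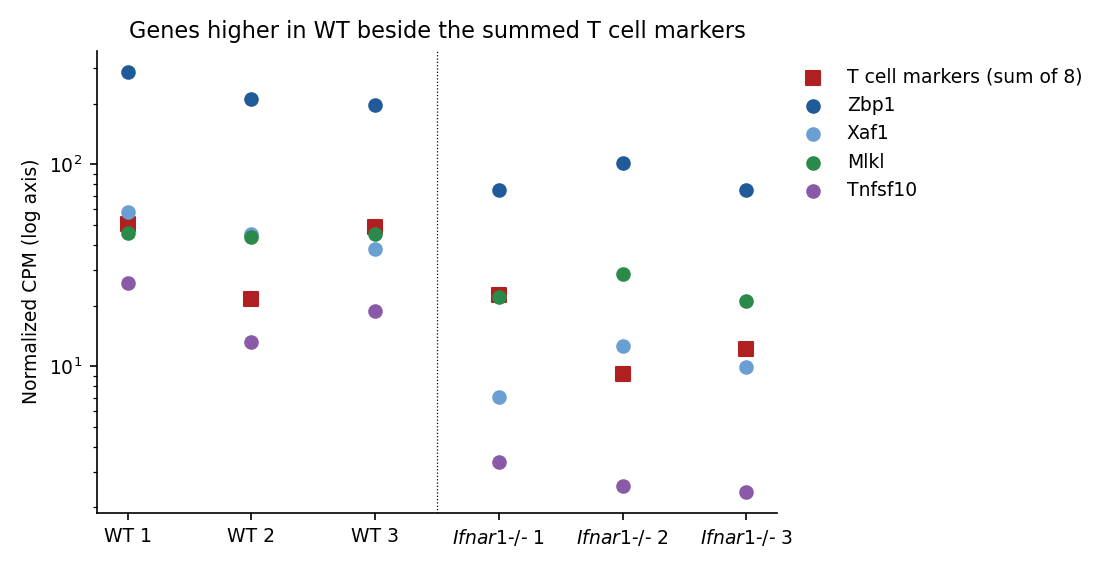
Normalized CPM (log axis) of *Zbp1*, *Xaf1*, *Mlkl*, and *Tnfsf10* in each library beside the sum of 8 T cell markers (squares). Squares of WT libraries 1 and 3 (50.5 and 49.2) are the highest, that of WT library 2 (21.5) is inside the *Ifnar1*-/- range (9.15 to 22.5), and all 4 genes are higher in each WT library than in each *Ifnar1*-/- library; the part of T cells was not tested.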

How the data were processed

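RNA-seq of sorted CNS monocytes was re-analyzed from 6 gene-level files, 1 per library, grouped by the deposited labels into 3 WT and 3 *Ifnar1*-/- libraries. Per the labels, the authors aligned reads to GRCm38 with STAR 2.6.0c and quantified genes with RSEM 1.2.31. The deposited expected counts are estimated by the authors with RSEM, are not normalized, and divide reads that fit several genes. The deposited TPM values were scaled by the authors per transcript length to the same total in each library. Whether counting used strand is not given in the sources used here, and the labels and the study's methods name different library kits.

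Gene identifiers were matched without version to GENCODE M21, which left 67 of 54232 unmatched. Rounded expected counts went into edgeR 4.0.16 under R 4.3.3 (TMM, filterByExpr with a minimum count of 10, quasi-likelihood test, Benjamini-Hochberg adjustment over 11254 genes, no block). The thresholds for a call, 0.05 and 1.5-fold, are those of the study. The 95% intervals come from the same fit and SE is the fold change on the log2 scale over the root of the F statistic. Exact permutation tests were two-sided, for single genes on log2 of normalized CPM plus 0.5. Those of ratios used log2 of the TPM ratio, and those of transcript length used nucleotides without a log. As alternatives, DESeq2 1.42.0, which the study used, limma-voom (limma 3.58.1), RLE normalization, no filter on low counts, removal of mitochondrial and ribosomal RNA genes, a replicate block, and fits without each library were run, with GC content and length offsets, with and without the block, added after seeing the data. Replicates of a group differed by far more than sampling noise.

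The 10 genes, the wider list, the marker lists, and the rule for named genes (all 10 genes, called genes of the wider list, up to 2 of the most abundant genes per role, and the 3 nearest profiles of each called gene) were chosen with earlier results of these data known. *Xiap*, *Fasl*, *Tlr3*, *Ticam1*, *Rbck1*, *Sharpin*, *Pmaip1*, *Casp1*, *Gsdme*, *Cd4*, *Cd8a*, *Gzma*, *Prf1*, and *Klrb1c*, the motifs, and the ratios were named after values were seen. Some genes of these lists are not reported here by name.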

Additional observations from a re-analysis of the deposited data

How the results depend on the processing

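The number of genes called among the 10 was 3 in the reported fit and in every alternative that kept all libraries, and 2 or 3 when a single library was left out, where *Mlkl* was the gene lost. *Fas* and *Bcl2l1* each changed sign in 1 of 14 alternatives without being called. For the wider list, leaving out the filter on low counts gave 5 called genes in place of 3, adding *Fasl* and *Tlr3*, and leaving out 1 library gave 1 to 2. Among all genes tested, 240 were called, with 872 without the filter, 469 with DESeq2, and 119 to 245 without 1 library; the causes were not tested, but fits without a library have fewer samples and the fit without the filter tests more genes. A fit with a replicate block called 220 of all genes and the same 3 of the 10-gene list, and *Rnf31* was lost (adjusted p = 0.0835, edgeR). Deviations of same-numbered libraries correlated by 0.0872, 0.0265, and 0.289 for numbers 1, 2, and 3. WT library 1 correlated slightly more with *Ifnar1*-/- library 2 (0.101) than with its own number. All other pairs that held a library numbered 3 were negative, from -0.204 to -0.0517. These values do not settle whether same-numbered libraries share a recipient, and the reported fit took no pairing because the sources used here give none. *Rnf31* was also lost with GC content and length offsets (adjusted p = 0.0673, and 0.0681 with the block), and the latter fit called 4 genes of the wider list, *Pmaip1*, *Adar*, *Tlr3*, and *Tnfsf10*.

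TPM rescaled to protein-coding genes alone moved all 20 group means by more than the spread between libraries, as its construction requires, for instance to 550 from 246 for *Zbp1* in WT and to 214 from 99.7 in *Ifnar1*-/- monocytes. On that scale *Ripk3* was lower in WT (45.7 against 52.8) and *Mcl1* higher (1263 against 1005) without overlap of the groups, and the groups of *Xaf1*, *Zbp1*, and *Mlkl* stayed apart. *Fas* and *Bid* held 44 to 73 and 83 to 129 counts per library, and their SEs (0.20 and 0.19) were close to those of the deeper *Bcl2l1* (0.20) and *Zbp1* (0.19).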

Other observations

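*Mcl1* and *Bid* act against each other at mitochondria, and each separated the groups without passing the test, in opposite directions. Their TPM ratio, chosen after these values were seen, was 91.0, 57.5, and 75.8 with the receptor and 54.4, 39.7, and 44.4 without it. Every WT library was above every *Ifnar1*-/- library, by little between WT library 2 and *Ifnar1*-/- library 1. As the genes were picked for moving apart in normalized CPM, this is a description with no test, and in TPM neither gene alone separated the groups. The *Bcl2l1* to *Bid* ratio overlapped between groups, at 9.94 ± 4.67 for WT and 6.88 ± 2.07 for *Ifnar1*-/- monocytes (SD, n = 3 each). The *Casp8* to *Cflar* ratio overlapped as well, at 0.876 ± 0.243 for WT and 0.796 ± 0.0425 for *Ifnar1*-/- monocytes (SD, n = 3 each), and WT library 2 was the lowest of all at 0.596.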
